A study of Homo sapiens with 2 samples.

Results

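The 43 genes described here encode the heat shock proteins of the cytosol with their transcription factors and partners, together with a few mitochondrial and endoplasmic reticulum relatives. They were chosen by name, and all 43 were found among 19974 protein-coding genes on chromosomes 1 to 22 and X of a RefSeq gene table. By role, 24 were placed in a heat shock class, 7 in the chaperonin, 6 in the prefoldins and 6 among the co-chaperones of Hsp90. Of 2 libraries, 1 came from PANC-1 cells given the solvent DMSO and 1 from PANC-1 cells given inflachromene, a small molecule known to bind HMGB1 and HMGB2. PANC-1 is an established human pancreatic ductal adenocarcinoma line, and the labels give no genotype change in either culture. Both were profiled by ChIPmentation, in which sequencing adapters are inserted by Tn5 transposase into immunoprecipitated chromatin, after fixation with 15 mM EGS and 1% formaldehyde. Neither the protein the antibody recognises nor the inflachromene dose and exposure time is known here, so what the peaks mark cannot be named. Below, a bound gene is one with a peak summit no more than 1000 bp from either end of its RefSeq span.

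Chaperones keep other proteins from aggregating and help them fold. Hsp70 proteins take up short unfolded stretches in cycles driven by ATP, handed to them by J-domain proteins of the Hsp40 family and released with the help of nucleotide exchange factors such as Hsp110 and BAG proteins. Hsp90 acts late in the maturation of kinases and steroid receptors, with co-chaperones that load clients or set the pace of its ATP cycle. The chaperonin TRiC is a barrel of CCT subunits that folds actin and tubulin, which the prefoldin complex delivers to it. Under heat and other proteotoxic stress the factor HSF1 forms trimers and binds heat shock elements, inverted repeats of the pentamer NGAAN, upstream of many of these genes.

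The heat shock element is the known regulatory sequence of this gene group, so promoters of members that carry it are shown first. Promoter windows from 250 bases before to 50 after a start were taken from RefSeq (GRCh38.p14) for 39 of the 43 members, in 55 windows, since 13 members have several listed starts. The element was searched as 3 units, GAANNTTC followed directly by NNGAA, on both strands. It was found in a window of 8 members, against 0.531% of 15812 protein-coding genes with windows. In the heat shock class these were DNAJA1, DNAJB6, HSP90AA1, HSP90AB1, HSPA8, HSPD1 and SERPINH1, 7 of 22, and among the Hsp90 co-chaperones CHORDC1, 1 of 5. It was in none of the windows of 7 chaperonin and 5 prefoldin genes. Upstream sequences of 6 of these genes are given 5′ to 3′ along the gene and end at the base before the listed start, with the 3-unit element in capitals. They lie at chr11:123062137-123062386 (minus strand) for HSPA8, chr14:102087045-102087294 (minus) for the inner start of HSP90AA1, chr2:197499841-197500090 (minus) for the inner start of HSPD1, chr7:157336754-157337003 (plus) for DNAJB6, chr11:75562003-75562252 (plus) for SERPINH1 and chr11:90223050-90223299 (minus) for CHORDC1.
HSPA8: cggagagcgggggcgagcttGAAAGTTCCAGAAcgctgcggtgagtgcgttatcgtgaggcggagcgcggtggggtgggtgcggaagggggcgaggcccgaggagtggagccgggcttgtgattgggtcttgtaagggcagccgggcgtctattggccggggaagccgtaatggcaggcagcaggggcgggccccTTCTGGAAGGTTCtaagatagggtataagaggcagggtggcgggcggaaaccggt
HSP90AA1: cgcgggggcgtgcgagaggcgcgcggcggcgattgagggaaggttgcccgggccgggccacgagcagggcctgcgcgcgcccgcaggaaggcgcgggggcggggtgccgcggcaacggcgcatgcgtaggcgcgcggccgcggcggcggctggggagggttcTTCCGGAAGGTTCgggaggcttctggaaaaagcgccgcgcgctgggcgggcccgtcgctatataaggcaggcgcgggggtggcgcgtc
HSPD1: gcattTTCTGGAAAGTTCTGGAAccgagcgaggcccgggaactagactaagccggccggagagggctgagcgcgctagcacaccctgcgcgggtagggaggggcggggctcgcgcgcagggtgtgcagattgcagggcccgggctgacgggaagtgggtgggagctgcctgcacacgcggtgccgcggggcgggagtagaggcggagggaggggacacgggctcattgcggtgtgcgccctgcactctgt
DNAJB6: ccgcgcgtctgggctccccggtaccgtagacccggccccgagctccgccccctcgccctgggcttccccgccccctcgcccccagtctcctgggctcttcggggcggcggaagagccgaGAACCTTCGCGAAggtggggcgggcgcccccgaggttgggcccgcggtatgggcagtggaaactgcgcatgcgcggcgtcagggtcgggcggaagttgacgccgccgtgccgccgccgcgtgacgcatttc
SERPINH1: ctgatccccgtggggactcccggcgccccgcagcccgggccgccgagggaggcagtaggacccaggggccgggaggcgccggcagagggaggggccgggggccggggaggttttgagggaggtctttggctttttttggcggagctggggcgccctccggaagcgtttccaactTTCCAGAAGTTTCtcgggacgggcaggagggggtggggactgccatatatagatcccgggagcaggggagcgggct
CHORDC1: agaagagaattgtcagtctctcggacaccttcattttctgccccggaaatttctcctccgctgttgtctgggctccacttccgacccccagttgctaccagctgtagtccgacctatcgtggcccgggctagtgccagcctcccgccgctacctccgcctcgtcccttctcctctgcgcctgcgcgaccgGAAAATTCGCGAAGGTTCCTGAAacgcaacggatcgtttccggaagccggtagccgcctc

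The shorter form of 2 units, GAANNTTC, which is part of the longer one, was found in windows of 15 members against 7.39% of genes. The other arrangement, TTCNNGAA, also part of it, was in 12, against 8.82%. The pair of stress-inducible Hsp70 genes and DNAJB1 had only this shorter form and are shown because their peaks are described below, with the 2-unit element in capitals. They lie at chr6:31815293-31815542 and chr6:31827488-31827737 (both plus) and, for the DMSO peak of DNAJB1 with the most fragments, at chr19:14518398-14518647 (minus). The HSPA1A and HSPA1B windows were 92.0% identical over 301 aligned positions. How reads that fit both copies were placed is not given, and the values of these 2 genes are uncertain for that reason.
HSPA1A: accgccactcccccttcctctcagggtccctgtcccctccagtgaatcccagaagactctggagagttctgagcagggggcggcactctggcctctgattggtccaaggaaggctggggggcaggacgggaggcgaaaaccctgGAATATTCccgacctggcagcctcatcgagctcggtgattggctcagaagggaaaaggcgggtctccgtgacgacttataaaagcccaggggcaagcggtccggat
HSPA1B: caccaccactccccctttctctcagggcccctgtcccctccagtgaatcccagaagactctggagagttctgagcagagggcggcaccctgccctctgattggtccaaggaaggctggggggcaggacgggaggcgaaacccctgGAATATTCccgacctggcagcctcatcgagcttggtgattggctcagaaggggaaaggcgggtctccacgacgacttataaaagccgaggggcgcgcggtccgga
DNAJB1: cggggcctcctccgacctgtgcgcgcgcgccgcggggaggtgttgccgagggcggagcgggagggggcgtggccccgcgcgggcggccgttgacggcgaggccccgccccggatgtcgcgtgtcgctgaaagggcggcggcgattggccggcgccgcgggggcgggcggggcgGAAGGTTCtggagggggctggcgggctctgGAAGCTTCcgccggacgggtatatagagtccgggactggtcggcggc

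PFDN6, a prefoldin gene with a peak in inflachromene alone, is shown for contrast (chr6:33289347-33289596, plus). Here the capitals mark matches to CCGGAAGT, a core sequence of ETS factors, read on the opposite strand. That sequence was in windows of 4 members (DNAJA1, CCT2, PFDN6 and AHSA1), 10.3%, against 6.98% of genes. The first of the runs in capitals overlaps a 2-unit heat shock element.
PFDN6: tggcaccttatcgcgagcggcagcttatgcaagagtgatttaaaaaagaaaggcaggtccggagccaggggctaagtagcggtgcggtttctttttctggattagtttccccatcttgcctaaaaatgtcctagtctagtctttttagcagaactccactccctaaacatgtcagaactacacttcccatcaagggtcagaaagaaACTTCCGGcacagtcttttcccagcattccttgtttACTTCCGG

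Among other motifs, the GC box GGGCGG was in windows of 31 members (79.5%, against 64.2% of genes) and the CCAAT box in 14 (35.9%, against 42.1%). The TATA box sequence TATAAA was found in 4 members, HSF2, HSPA1A, HSPA1B and STIP1, against 12.4% of genes. The match began at -30 and -29 bp from the start (negative is upstream) in HSPA1A and HSPA1B. In HSF2 and STIP1 it began further away, at -172 and -191 bp. The cyclic AMP response element TGACGTCA was in TRAP1, CDC37 and HSP90AB1, against 3.0% of genes. The motif of NRF1 was in DNAJB6 alone among the members, against 1.99%, and that of YY1 in PFDN4 and VBP1, against 2.23%. These are matches of letters in a window, all searched on both strands, and genes with several starts had more windows to match.

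The lists held 15186 DMSO and 10836 inflachromene peaks on the chromosomes used. They give no read counts. The pileup, meaning how many fragments cover a summit, was worked back from the authors' deposited fold enrichment and p-value, and its 95% Poisson interval covers counting error only. The inflachromene library was inferred to hold 0.964 times as many fragments as DMSO. The implied fragment length was 152.35 bp in DMSO and 165.69 bp in inflachromene. The lowest background, which depends on both number and length, was 0.6513 in DMSO and 0.6832 in inflachromene. Where ratios are scaled below, the scaling uses the number of fragments and not their length. Of 6 genes expected to be active in this line (KRT8, KRT18, KRT19, SOX9, CAV1 and VIM) 6 had a DMSO peak and 5 an inflachromene peak. Of 8 acinar and islet markers 1 had a DMSO peak (PDX1), of 5 immune markers 2 (SPI1 and CD68), and of 5 fibroblast and endothelial markers 0. With 1 sample per treatment there is no replicate check, no test between treatments was made, and every difference compares these libraries and not the conditions.

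The first question was which chaperone genes had a peak at an end at all. In DMSO 38 of the 43 did (88.4%, exact Clopper-Pearson 95% interval 74.9 to 96.1), against 45.7% of all protein-coding genes. In inflachromene 34 did (79.1%), against 38.0%. The members were chosen with earlier results of these data known, so these shares describe this list and are not a test of enrichment. Of the members, 32 were bound in both lists (background 36.3%), 6 in DMSO alone (9.41%), 2 in inflachromene alone (1.69%) and 3 in neither. The 6 in DMSO alone were SERPINH1, DNAJA2, CCT5, PFDN1, PFDN2 and FKBP4. PFDN4 and PFDN6 were bound in inflachromene alone, and HSPB1, DNAJB1 and VBP1 in neither by this rule. The DMSO list is the longer one. With both lists at equal length, 2 members (CCT5 and FKBP4) were in DMSO alone, against 4.5% of all genes, and 4 (PFDN4, PFDN5, PFDN6 and CHORDC1) in inflachromene alone, against 4.58%, so the order of these counts depended on list length. Of the 40 members with any peak, 18 shared it with an end of another protein-coding gene, against 32.9% of all genes with a peak, and such a peak cannot be credited to 1 gene.

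The heat shock, chaperonin and prefoldin genes were then set side by side. Peaks were found in DMSO at 22 of 24 heat shock genes (91.7%, 73.0 to 99.0), at 7 of 7 chaperonin genes (59.0 to 100%), at 6 of 6 Hsp90 co-chaperone genes and at 3 of 6 prefoldin genes (50%, 11.8 to 88.2). Both lists had a peak at 20, 6, 5 and 1 of them. Of all protein-coding genes 45.7% had a DMSO peak, near the prefoldin share, and 36.3% a peak in both lists. Pileups at prefoldin gene ends were low. No prefoldin summit at a gene end held more than 21 fragments in either library. The median over members bound in both lists was 41 fragments in DMSO for the heat shock class and 40.5 for the chaperonin. Those medians leave out weaker genes bound in DMSO alone, such as DNAJA2 with 10 fragments and SERPINH1 and CCT5 with 18. With listed starts counted as well, 4 of 6 prefoldin and 23 of 24 heat shock genes had a DMSO peak (all genes 48.8%). The VBP1 peak found that way held 30 fragments in DMSO. The intervals of the small classes are wide and overlap, and no test between classes was made.

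**Figure D1:**
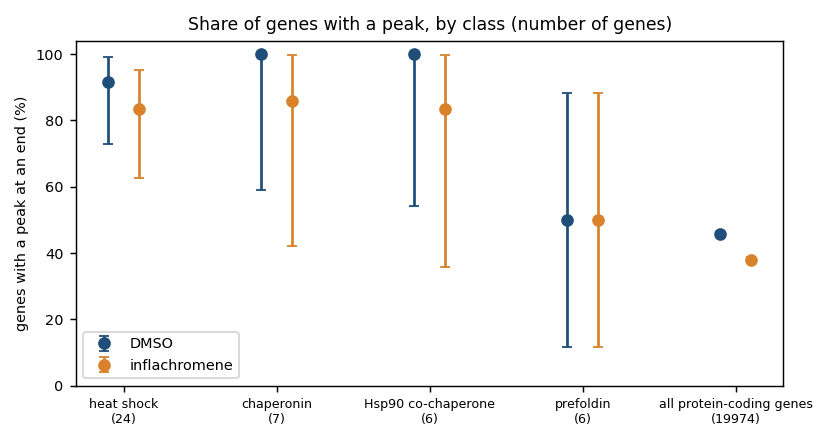
Share of genes with a peak within 1000 bp of a gene end (vertical axis, percent) in DMSO (blue) and inflachromene (orange) for each class, with the number of genes in brackets and exact 95% binomial intervals. In DMSO, heat shock genes stand at 91.7% and prefoldin genes at 50%, against 45.7% of all protein-coding genes.

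Of the transcription factors, HSF1 directs the heat shock response and HSF2 can form mixed trimers with it. Both genes were bound in both lists. HSF1 held 26 fragments in DMSO and 22 in inflachromene, at an end shared with the ribosome biogenesis gene BOP1. HSF2 held 33 and 39 fragments, so the library from treated cells was the higher one there. Inflachromene over DMSO, the pileup ratio was 0.846 at HSF1 (exact binomial interval 0.457 to 1.55) and 1.18 at HSF2 (0.724 to 1.94), and neither interval left out 1.

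All 7 genes of the Hsp70 and Hsp110 group were bound in both lists. HSPA1B, 1 of the pair of stress-inducible Hsp70 genes in the major histocompatibility region of chromosome 6, had the highest pileup of the group, with 186 fragments in DMSO (160 to 215) and 152 in inflachromene. Its near-identical neighbour HSPA1A, which starts 12.2 kb away, held 53 and 57 fragments at 67 to 71 bp upstream of its start. Of this pair, HSPA1B was thus lower and HSPA1A higher in inflachromene, with ratios of 0.817 (interval from 0.655 to just above 1) and 1.08 (0.727 to 1.59). A further HSPA1A peak with its DMSO summit 803 bp upstream held 39 fragments in DMSO and 29 in inflachromene, and the peaks of this gene also lay near an end of HSPA1L. HSPA8, the constitutive cytosolic Hsp70, held 71 fragments in DMSO and 54 in inflachromene in peaks that cover both heat shock elements printed above.

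HSPA13, a microsomal member of the family, held 51 and 34 fragments (ratio 0.667, 0.419 to 1.05) and HSPA14, a ribosome-associated one, 38 and 29. HSPA14 shares its end with CDNF and MSANTD7. HSPA4, of the Hsp110 branch, held 29 and 28, the closest pair of values in the group. HSPH1, encoding Hsp110 itself, had the lowest pileups of the group, with 24 and 17 fragments. In all, 6 of the 7 genes were lower in inflachromene, and the median ratio was 0.763. Among all genes with an overlapping peak in both lists 77.4% were lower and the median was 0.822, so the count of this group is near the background.

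The cytosolic Hsp90 genes showed how the choice of end matters. At HSP90AA1, encoding the inducible form, the peak at the outer end of the gene (chr14:102139469-102139974) held 57 fragments in DMSO and 35 in inflachromene, a ratio of 0.614 (0.391 to 0.952) whose interval lay below 1. That end is shared with WDR20. RefSeq also lists a start far inside the span, the one whose promoter with its heat shock element is printed above. The peak there, with its DMSO summit 52541 bp from the outer end, held 21 fragments in both libraries. HSP90AB1, the constitutive form, had 2 peaks near its outer end. The peak 310 bp inside the gene held 45 fragments in DMSO and 34 in inflachromene (0.756, 0.469 to 1.21), and the one 783 bp inside held 41 and 43 (1.05, 0.668 to 1.65).

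Hsp40 proteins bring substrates to Hsp70 and trigger its ATP hydrolysis. DNAJB6 had the lowest ratio of all members bound in both lists, with 31 fragments in DMSO (21.1 to 44) and 16 in inflachromene (9.15 to 26.0), a ratio of 0.516 (0.264 to 0.973). DNAJB4 held 30 fragments in both, and DNAJA1 24 and 19. DNAJA2 had a peak of 10 fragments in DMSO alone, the lowest DMSO pileup among the members' strongest peaks. DNAJB4 shares its end with FUBP1 and DNAJA1 with APTX. At an inner listed start of DNAJB4, peaks of 18 and 21 fragments were found in DMSO alone.

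DNAJB1, the main stress-inducible Hsp40 and a partner of Hsp70 in dissolving aggregates, was unbound by the rule but had strong peaks inside its annotated span. The RefSeq gene runs from 14514769 to 14560391 on chromosome 19, and its 3 listed starts all lie far inside the upstream end. The peak at the start printed above (chr19:14517925-14518799 in DMSO) held 57 fragments in DMSO and 61 in inflachromene (1.07, 0.734 to 1.56). The peak at the outermost listed start held 41 and 43 fragments (1.05, 0.668 to 1.65). Both were slightly higher in inflachromene, within counting error.

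BAG1 and BAG3 are nucleotide exchange factors of Hsp70, and BAG3 links it to selective autophagy. BAG1 held 49 fragments in DMSO and 42 in inflachromene, at an end shared with CHMP5. BAG3 held 41 and 29 (0.707, 0.424 to 1.17) in peaks with summits 15 and 10 bp upstream of the start. HSPB1, a small heat shock protein that holds unfolded proteins, had its nearest DMSO summit 10184 bp away and no peak at an end in either list. SERPINH1, the collagen-specific chaperone of the endoplasmic reticulum, had a DMSO peak of 18 fragments 504 bp inside the gene, which did not cover its heat shock element, and the nearest inflachromene summit was 133918 bp from an end.

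The mitochondrial chaperone genes were all bound in both lists. HSPA9, encoding mortalin, the mitochondrial Hsp70, had the highest DMSO pileup of the 43 genes, with 196 fragments (170 to 225) against 145 in inflachromene. Its ratio of 0.740 (0.593 to 0.922) lay below 1 over the whole counting interval. Its local background was also lower in inflachromene (8.6 in DMSO and 7.025), and its fold enrichment was 20.52 and 18.19. HSPD1 and HSPE1, which encode the mitochondrial chaperonin and its lid, stand head to head and share 1 peak. That peak (chr2:197499678-197500418 in DMSO) held 50 fragments in DMSO and 62 in inflachromene, the highest ratio among the members at 1.24 (0.841 to 1.84). Its DMSO summit lay 2 and 7 bp from the centres of the overlapping heat shock elements. TRAP1, the mitochondrial Hsp90, held 27 and 25 fragments.

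Of the 7 chaperonin subunit genes 6 were bound in both lists and 5 of these were lower in inflachromene, a share near the 77.4% of all genes. CCT4 held 62 fragments in DMSO and 41 in inflachromene (0.661, 0.435 to 0.997), and CCT3 41 and 29. CCT7 held 61 and 64, but its peak lay 939 bp upstream, by PRADC1. TCP1, the founding subunit, held 40 and 36 fragments near its start, and a further peak held 24 and 28. Both TCP1 peaks also lay at an end of MRPL18. CCT2 held 29 and 22, and CCT8 25 and 22. CCT5 had peaks of 18 and 11 fragments in DMSO alone, both also at an end of ATPSCKMT, and the nearest inflachromene summit lay 282390 bp from its ends. CCT4 shares its end with COMMD1. Over the 6 genes the median ratio was 0.819, against 0.822 over all genes.

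At gene ends the prefoldin genes had no peak above 21 fragments, and both members bound in inflachromene alone were prefoldins. With lists of equal length PFDN5 and the co-chaperone gene CHORDC1 joined them. PFDN4 had a peak of 11 fragments in inflachromene (5.49 to 19.7), and its nearest DMSO summit lay 8270 bp away. PFDN6 had 16 fragments in inflachromene (9.15 to 26.0), with the nearest DMSO summit at 8032 bp. The PFDN6 peak also lay at an end of WDR46.

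PFDN1 and PFDN2 were bound in DMSO alone, with 13 and 16 fragments. The PFDN1 peak lay 58334 bp from its start, at the other end of the gene and by CYSTM1, and the PFDN2 peak also lay at an end of NIT1. PFDN5 counts as bound in both lists only through its far end, by MYG1, with 21 fragments in each. At its own start, 45 bp upstream, it had 21 fragments in DMSO and no inflachromene peak.

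VBP1, encoding the remaining prefoldin subunit, was unbound by the rule, yet a peak lay at its listed starts, with the DMSO summit 19366 bp inside the annotated span. That peak on the X chromosome (chrX:155216184-155216536 in DMSO) held 30 fragments in DMSO and 29 in inflachromene (0.967, 0.560 to 1.67). By listed starts, it was the strongest peak of any prefoldin gene.

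Of the Hsp90 co-chaperone genes, STIP1, which bridges Hsp70 and Hsp90, had the highest pileup, with 93 fragments in DMSO and 84 in inflachromene (0.903, 0.664 to 1.23). Both summits lay at the same base, 605 bp inside the annotated span and upstream of an inner listed start. CDC37, which loads kinases onto Hsp90, held 43 and 26 (0.605, 0.357 to 1.01). PTGES3, encoding p23, held 38 and 27. AHSA1, the activator of Hsp90's ATPase, held 29 in both libraries, at an end shared with VIPAS39. CHORDC1, an Hsp90-binding protein and known heat shock gene, held 16 and 19 (1.19, 0.578 to 2.47) in peaks that cover its 3 overlapping heat shock elements. FKBP4, a peptidyl-prolyl isomerase of steroid receptor complexes, had 15 fragments in DMSO alone.

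**Figure D2:**
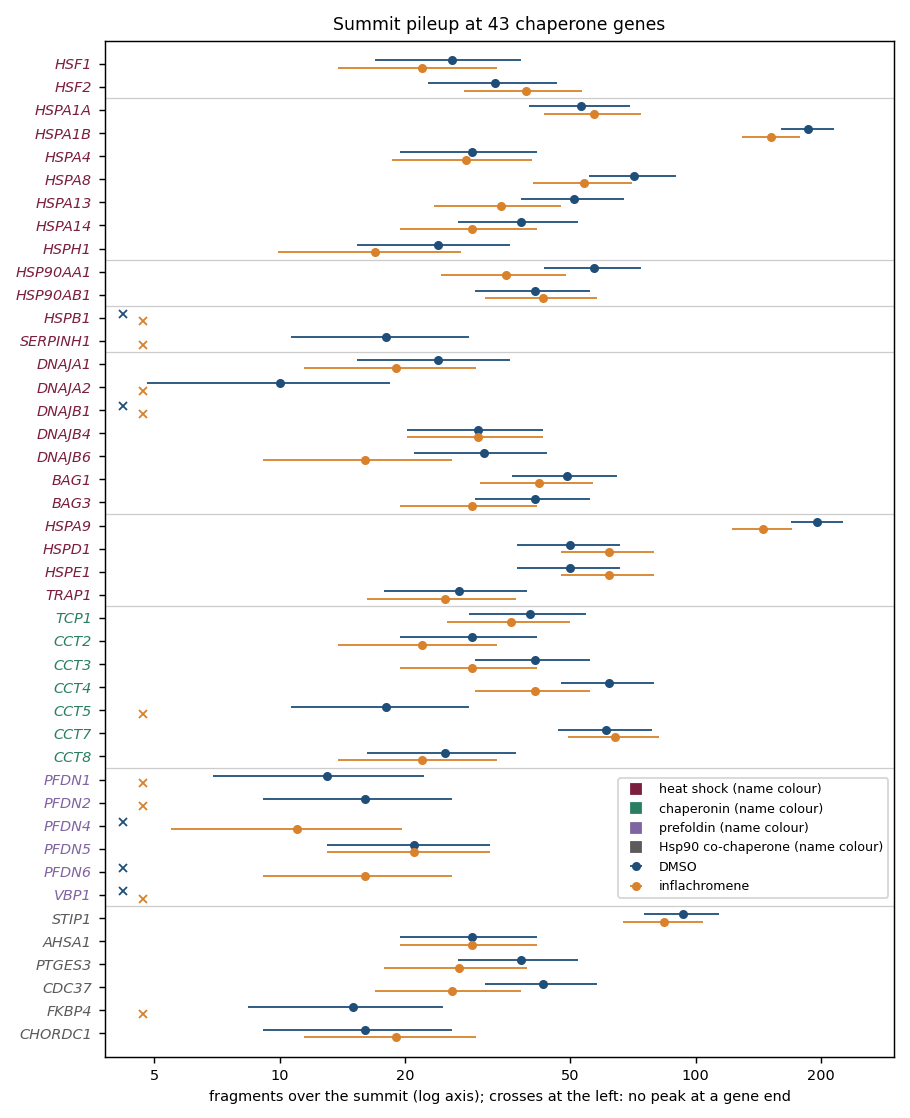
Fragments over the summit (horizontal, log axis) at each of the 43 genes in DMSO (blue) and inflachromene (orange), with 95% Poisson intervals and genes in blocks by role. Crosses at the left mark genes with no peak at an end. The highest DMSO point is HSPA9 with 196 fragments, the highest inflachromene point is HSPA1B with 152, and HSPB1, DNAJB1 and VBP1 have a cross in both libraries.

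The second question was how the members bound in both lists compared between libraries. The inflachromene pileup was lower at 22 of 32 members (68.8%), against 77.4% of the 7212 genes with an overlapping peak in both lists. It was equal at 3 and higher at 7, against 18.2% higher among all genes. The median ratio was 0.852 over the members and 0.822 over all genes. The members thus had ratios near the background of the library, and their lower pileups alone do not set them apart from other genes.

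Past a fold of 1.5, 4 members were lower (DNAJB6, CDC37, HSP90AA1 and CCT4), against 17.2% of all genes, and 0 were higher, against 1.01%. With fold enrichment in place of pileup, only 1 of the 32 was lower by that much, and no share of all genes is given for that measure. The counting interval of the ratio lay wholly below 1 at DNAJB6, HSP90AA1, HSPA9 and CCT4, 4 of 32, against 8.61% of all genes. Scaled by the relative number of fragments, it did so at HSP90AA1 and HSPA9 alone, 2 of 32, against 6.25% of all genes. Peaks were narrower in inflachromene at 25 of 32 members, against 69.0%, with median widths of 456 and 350 bp in DMSO and inflachromene. In the heat shock class 18 of 20 were narrower, and in the chaperonin 3 of 6. DNAJB4, with equal pileups, had a peak 577 bp wide in DMSO and 264 bp wide in inflachromene.

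**Figure D3:**
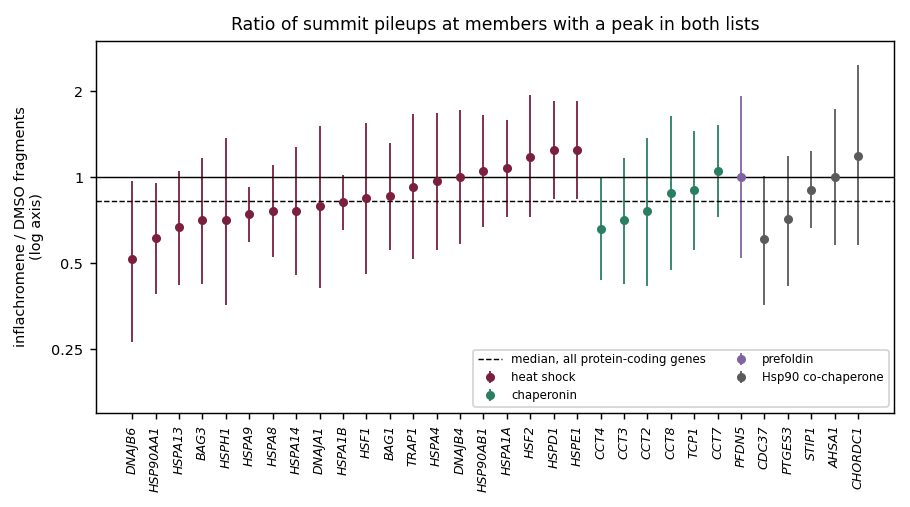
Ratio of inflachromene to DMSO fragments (vertical, log axis) at the 32 members with a peak in both lists, with exact 95% binomial intervals and colours by class. The solid line marks 1 and the dashed line the median of all protein-coding genes, 0.822. Points run from 0.516 at DNAJB6 to 1.24 at HSPD1 and HSPE1, which share 1 peak, and most intervals cross 1.

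The third question was which DMSO peaks were without an inflachromene partner. Of 38 members bound in DMSO, 6 had no inflachromene peak (15.8%, 6.02 to 31.3), against 20.6% of all genes bound in DMSO. With lists of equal length 2 of 32 had none (6.25%), against 11.9% of all genes. By the full lists, these 6 were all weak, with 10 to 18 fragments at their strongest DMSO summit. Of 7 members under 20 fragments, 6 had no inflachromene peak, against 54.1% of all genes of that strength, and CHORDC1 was the exception. None of 14 members with 20 to 39 fragments and none of 17 with 40 or more was without one, against 13.6% and 0.639% of all genes. These counts are of genes and not of single peaks. The start peak of PFDN5, with 21 fragments in DMSO, had no overlapping inflachromene peak. Nor had a DMSO peak of 21 fragments at an inner listed start of DNAJB4. In so few genes the intervals are wide (42.1 to 99.6% for the weakest group), and the limits of 20 and 40 fragments were set after the values had been seen.

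**Figure D4:**
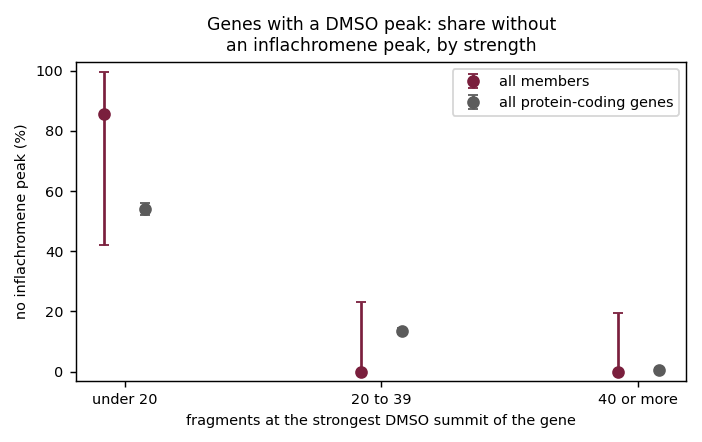
Share of genes bound in DMSO that had no inflachromene peak (vertical, percent), by the fragments at the gene's strongest DMSO summit (horizontal), for the members (red) and all protein-coding genes (grey), with exact 95% binomial intervals. Under 20 fragments the members stand at 85.7% and all genes at 54.1%, and no member above that strength was without an inflachromene peak. The full lists are used, and with lists of equal length 2 members in all were without one.

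The positions of the summits were then compared with the listed starts, over gene ends and listed starts together. For 36 members with a DMSO peak and a listed start, the strongest summit lay at a median of -69 bp from the nearest start (negative is upstream), against -84 bp for 8297 genes. It was upstream at 77.8% of members and 81.9% of genes, and within 250 bp of the start at 72.2% and 79.8%. In inflachromene the median was -102 bp for 34 members, against -91 bp for 6979 genes. There the summit was upstream at 91.2% of members and 82.8% of genes, and within 250 bp at 82.4% and 80.0%. The order of members and all genes thus differed between the libraries. With listed starts, 6 members were bound in DMSO alone (all genes 9.8%), and 6 of 40 bound in DMSO had no inflachromene peak (all genes 20.1%). By gene ends alone, summits of the same peak in the 2 libraries lay a median of 25.5 bp apart at the members and 36 bp apart at all genes.

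The 3-unit heat shock elements of 6 of the 8 members that have them lay inside a DMSO peak, and those of the same number inside an inflachromene peak. Over all 84 genes with such an element the share was 21.4% in DMSO and 20.2% in inflachromene. Since 88.4% of the members had a DMSO peak anyway, the members' count is a description of peak position and says nothing of which factor was bound. The exceptions were SERPINH1, whose element is upstream of its outer start, and HSP90AB1, whose elements belong to an inner start. No peak of either library lay over these. At the covered elements the pileups were 71 and 54 fragments at HSPA8, 50 and 62 at HSPD1, 31 and 16 at DNAJB6, and 24 and 19 at DNAJA1. HSP90AA1 at its inner start had 21 and 21, and CHORDC1 16 and 19. Genes with the element therefore included the lowest and the highest ratio among the members.

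**Figure D5:**
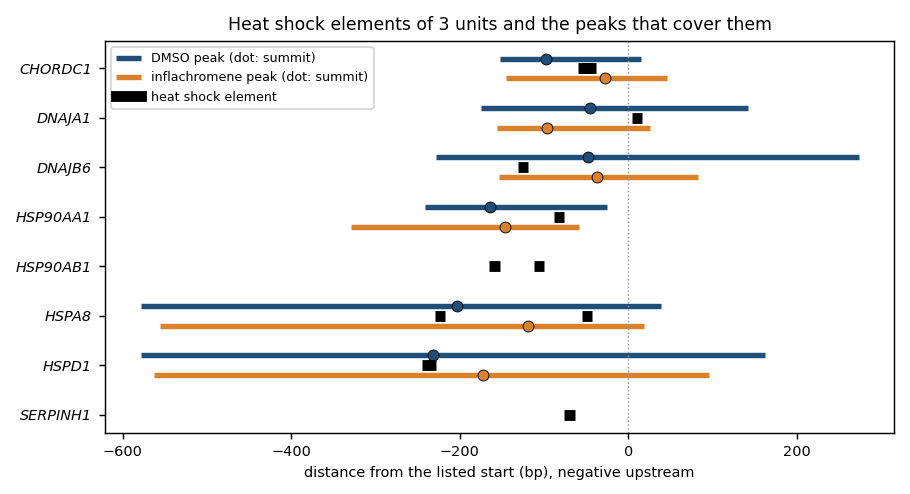
Distance from the listed start in bp (horizontal, negative upstream) of 3-unit heat shock elements (black) and of the DMSO (blue) and inflachromene (orange) peaks that cover them, with dots at the summits, at 8 members. Elements lie inside peaks of both libraries at 6 genes, and no peak covers those of HSP90AB1 and SERPINH1.

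A list of 64 other chaperone genes gives the setting. Of these 63 matched, 44 had a DMSO peak (69.8%, 57.0 to 80.8), 43 an inflachromene peak and 40 both. Over all protein-coding genes the shares were 45.7%, 38.0% and 36.3%. HSPA1L counts among the 40 through the HSPA1A peak of 53 and 57 fragments, already described for a member. Sharing of peaks with other neighbouring genes is not given for this list. HSPA4L, NUDC, PPID and TOMM34 were bound in DMSO alone (all genes 9.41%), with 13 to 19 fragments. DNAJC2, HSBP1 and HSPA12A were bound in inflachromene alone (all genes 1.69%), with 10 to 18. The 16 without a peak included the strictly inducible HSPA6, the testis-enriched HSPA2, and the factors HSF4 and HSF5. Among them were also the small heat shock genes CRYAB, HSPB2, HSPB3, HSPB7 and HSPB8. Others without a peak were DNAJA4, DNAJB14, DNAJC8, HSPA12B, FKBP5, CDC37L1 and URI1. HSPB6, another small heat shock gene, was bound in both lists with 73 fragments in DMSO and 66 in inflachromene, and the chaperonin gene CCT6B with 10 and 13. CCT6A, the remaining subunit of the chaperonin in most tissues, held 52 and 51 fragments. HSPA5 and HSP90B1, the Hsp70 and Hsp90 of the endoplasmic reticulum, held 63 and 50 and 84 and 73. HSPBP1, which promotes nucleotide exchange on Hsp70, held 55 and 32. The median ratio over the 40 genes was 0.846, between those of the members and of all genes.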

How the data were processed

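Per the submitters' processing notes, peaks were made with MACS2 and deepTools 3.5.6 on hg38. The MACS2 version, aligner and duplicate handling are not given in the sources used. Each deposited list gives per peak an integer score (not used), fold enrichment (a ratio over local background), p-value and q-value as −log10, and the summit offset.

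The whole-number pileup was found that matched the deposited fold enrichment and −log10 p within 0.001, at every peak used. On simulated data 2000 of 2000 pileups were returned. The relative number of fragments, 0.964, came from the lowest background and implied fragment length.

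Each list was assigned by its own summits within 1000 bp of either end of a RefSeq gene (GRCh38.p14, the coordinates of hg38). Ratios compare overlapping peaks, the pair with the highest summed pileup where there were several. The rule for named genes took the 3 highest DMSO pileups of each role, every member in 1 list only, the 3 lowest and 3 highest ratios, and members without a peak; values of the remaining members were added. Python 3.11.15 and scipy 1.17.1 were used. The members and lists were chosen with earlier results of these data known. Intervals are 95% and cover counting error only.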

Additional observations from a re-analysis of the deposited data

How the results depend on the processing

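Of the recomputed values, 101 stayed within 1.5 times the count or moved a median ratio by less than its counting error. With both lists at equal length, members in DMSO alone were 2 and in inflachromene alone 4, in place of 6 and 2. With reciprocal overlap of 50% required, 9 members bound in DMSO had no inflachromene partner (20.9%, against 12.4% of all genes). At that setting 5 members bound in inflachromene had no DMSO partner (11.6%, against 4.68% of all genes). Of these, DNAJB4, DNAJB6 and HSPH1 had a wider DMSO peak that overlapped by less. With fold enrichment in place of pileup, 1 of the 32 members with a ratio was lower by over 1.5-fold, in place of 4. The median ratio over members ran from 0.804 (window of 500 bp) to 0.883 (pileup scaled by number of fragments). Counting listed starts as well as gene ends was an alternative chosen after seeing the data. It gave 40 members with a DMSO peak and 36 with an inflachromene peak, against 48.8% and 40.6% of all genes. Taking the strongest peak of each list, or counting HSPD1 and HSPE1 once, was also chosen after seeing the data and gave medians of 0.852 and 0.846. No paired analysis was possible because each treatment had 1 sample, and for the same reason none could be left out. The prefoldin median rests on 1 gene. The lists hold called peaks only, so a gene absent from a list has no measured value there. The cause of the moved counts was not tested.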
